A study of Mus musculus with 12 samples.

Results

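Multipotent progenitors (MPP) of male mice were compared with and without the chromatin protein Phf6 by ATAC-seq, which cuts and tags accessible chromatin with the transposase Tn5, so that reads pile up at open DNA. The comparison used 6 of the 12 libraries of the series, 3 labelled Phf6KO_MPP and 3 labelled WT_MPP, and all 188262 accessible regions of the deposited table. The other 6 libraries came from long-term haematopoietic stem cells (LT-HSC) of the same genotypes. Knockout (KO) mice were Phf6-/Y Rosa26+/Cre-ERT2, with a deleted X-linked Phf6 allele and a Cre recombinase, activated by tamoxifen, at the Rosa26 locus. Wild-type (WT) mice were Phf6f/Y Rosa26+/+, with the floxed Phf6 allele and without Cre. Since Cre-ERT2 was present in each KO mouse and in no WT mouse, its effect and that of Phf6 loss cannot be told apart. The labels describe nuclei of 20000 sorted LT-HSC from separate mice, 3 per genotype, 8 weeks after tamoxifen, and attach the same wording to the MPP samples. The sources used here do not give how the MPP were sorted or whether MPP and LT-HSC of the same number came from 1 mouse, so the p-values measure the spread between these libraries, which may be technical.

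PHF6 is a nuclear and nucleolar protein with PHD-like zinc fingers that associates with chromatin and with chromatin-remodelling proteins. Its gene is mutated in T cell and myeloid leukaemias, and germline mutations cause Börjeson-Forssman-Lehmann syndrome, an intellectual disability disorder. MPP descend from LT-HSC, keep the capacity to form all blood lineages and have lost most long-term self-renewal. Open regions at gene starts are mostly promoters, and those within and between genes include enhancers, whose opening varies more from cell type to cell type.

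Total counts in regions were 39960758, 48547234 and 28842890 in WT replicates 1 to 3 and 26399192, 41086637 and 37580274 in KO replicates 1 to 3. Levels below are CPM, the usual counts scaled by library size (here with TMM factors), listed by replicate in that order, and a log2 fold change (KO over WT) carries its standard error (SE). A principal component analysis of log2 CPM separated KO from WT along its first axis (38.2% of variance). The second axis, with 19.3%, set WT replicate 3 apart from WT replicates 1 and 2. A region is named by the protein-coding gene it overlaps, or by the nearest such gene within 100 kb, which does not show that it acts on that gene. Coordinates are on GRCm38.

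The MPP label was checked against markers at gene ends. The region at Flt3, the receptor whose appearance marks the step from LT-HSC to MPP, had 59.5 ± 1.36 CPM in WT MPP and 35.5 ± 0.653 in WT LT-HSC (SD, n = 3). At Mpo, a myeloid granule enzyme, the values were 11.99 ± 0.628 and 1.89 ± 0.320 CPM, and at Cd48, a surface marker gained by progenitors, 7.04 ± 0.355 and 4.16 ± 0.270 CPM. Cd34 was also higher in WT MPP (27.16 and 17.72 CPM), whereas Kit (36.68 and 39.29) and Ly6a (5.199 and 8.439) were higher in WT LT-HSC. Of the LT-HSC markers, Hlf, a factor of stem cells, was not higher in LT-HSC. Its region had 23.0 ± 1.72 CPM in WT MPP and 20.2 ± 1.75 in WT LT-HSC. The other LT-HSC markers had higher means in WT LT-HSC. In WT MPP and WT LT-HSC these were 50.03 and 60.98 CPM at Ctnnal1 and 37.53 and 43.33 at Mecom. At Fgd5 they were 5.73 and 7.23 CPM and at Slamf1 2.95 and 3.95, while at Procr and Hoxb5 the SDs overlapped. Some markers of mature cells were more open in WT MPP than in WT LT-HSC. Levels were 3.39 ± 0.604 and 0.886 ± 0.129 CPM at Cd3e (T cells), 6.52 ± 0.569 and 1.37 ± 0.199 at Adgre1 (macrophages) and 0.987 ± 0.251 and 0.610 ± 0.021 at Cdh5 (endothelium) (SD, n = 3). None of these was at 0, and Ncr1 and Gata1 had no tested region at a gene end. Summed over the gene-end regions of whole marker lists, T cell genes (13 genes) held 165 to 190 CPM in WT and 156 to 176 in KO libraries, and B cell genes (11 genes) 82.4 to 94.8 and 79.8 to 82.6. NK cell genes (8 genes) held 54.6 to 62.6 and 60.8 to 65.5 CPM, macrophage and endothelial genes (14 genes) 105 to 111 and 116 to 119, and myeloid genes (21 genes) 432 to 457 and 465 to 487. The ranges of WT and KO did not overlap for the macrophage and endothelial and the myeloid lists. The same was seen at the HSC identity list (624 to 633 CPM in WT and 667 to 682 in KO). At the MPP and lymphoid priming list the ranges did overlap (380.6 to 398.3 CPM in WT and 397.7 to 398.5 in KO). The part of other cells in the results was not tested.

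Phf6 itself was checked next. Its gene-end region, chrX:52912011-52912448, held 32.2, 30.8 and 30.5 CPM in WT and 29.5, 27.6 and 28.2 CPM in KO. All 3 KO values lay below all 3 WT values, and the log2 fold change of -0.13 ± 0.07 did not pass (edgeR adjusted p = 0.227). Of 10 regions assigned to Phf6, 1 rose, chrX:52913820-52914221 in the gene body, with 1.47, 1.38 and 1.49 CPM in WT and 2.52, 2.33 and 2.65 in KO (log2 fold change 0.79 ± 0.16, adjusted p = 0.00473). The covariate described below ended that call. The sources used here do not give which exons the floxed allele removes, so these values do not check the labels.

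Of 179470 regions tested in MPP, 9237 (5.15%) were more accessible in KO and 6600 (3.68%) less accessible at an adjusted p under 0.05 in edgeR's quasi-likelihood test, 15837 (8.82%) in all. With counts scaled to the plain library total in place of TMM, 7134 rose and 8357 fell, so that the share of higher regions among those called went from 58.3% to 46.1%. Most changes were small. The median log2 fold change was 0.49 among higher and -0.59 among lower regions, and at least 2-fold changes were seen in 438 higher and 982 lower regions. The WT and KO libraries did not overlap in 15287 of the 15837 called regions, against 28.5% of all tested regions. The counts depended on single libraries: without KO replicate 2 there were 2539 higher and 1548 lower regions, and without KO replicate 3 3145 and 1912, and without WT replicate 1 5299 and 3780. The call was kept without each of the 6 libraries in turn for 1760 higher and 991 lower regions. Counts for most gene lists given below fell in the same way, whereas each region named below as having risen or fallen kept its call without each library unless stated.

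Gains were most frequent at gene starts and losses far from genes. Of 17610 regions within 1 kb of a gene start, 2255 (12.8%) rose and 327 (1.86%) fell, with a median log2 fold change of 0.08. In gene bodies 4.40% rose and 3.59% fell, and between genes 3.95% rose and 4.33% fell. With distance from the nearest gene start the share of higher regions went from 13.2% of those overlapping a start, through 6.08% at 1 to 10 kb, to 3.46% beyond 100 kb. The share of lower regions went from 2.05% through 2.85% to 4.93%. Among 13575 regions with no protein-coding gene within 100 kb, 2.99% rose and 5.95% fell, and 205 of these 808 losses were at least 2-fold. The changes at gene starts were small in size: 18 rose and 20 fell at least 2-fold, against 249 and 401 in gene bodies and 159 and 555 between genes.

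Regions differ in level, and level bears on what a test can call. In the lowest 10% of regions by level (median 0.397 CPM) 0.507% of regions rose and 1.57% fell, and in the highest 10% (median 23.6 CPM, with 44.9% gene starts) 12.6% rose and 4.89% fell. Within the highest 10% the classes still differed, with 16.4% higher and 1.29% lower at gene starts, 7.82% and 9.19% in gene bodies and 9.68% and 8.66% between genes. The share of all counts that fell at gene ends was 41.0%, 40.2% and 39.2% in WT and 41.4%, 41.0% and 41.3% in KO libraries. The KO mean was 1.11 percentage points higher, with 1 WT value between the KO values. An exact permutation test (2-sided) gave p = 0.2, and since 0.1 is the smallest p that 3 against 3 libraries can give, it could not have passed and says nothing of whether the shares differ. With this share added to the model as a covariate, 1126 regions rose and 724 fell, and 1.16% of gene starts rose and 0.415% fell. Since the share was on average higher in KO, the covariate is partly tied to genotype. A call lost with it does not by itself show a smaller change. At gene starts the median log2 fold change was 0.079 without the covariate and 0.038 with it. At the immediate early genes described below it was 0.156 and 0.158, while higher regions went from 70 to 5. The part of this share in the gains at gene starts was not tested beyond that fit. In every fit tried, more gene-start regions rose than fell.

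**Figure D1:**
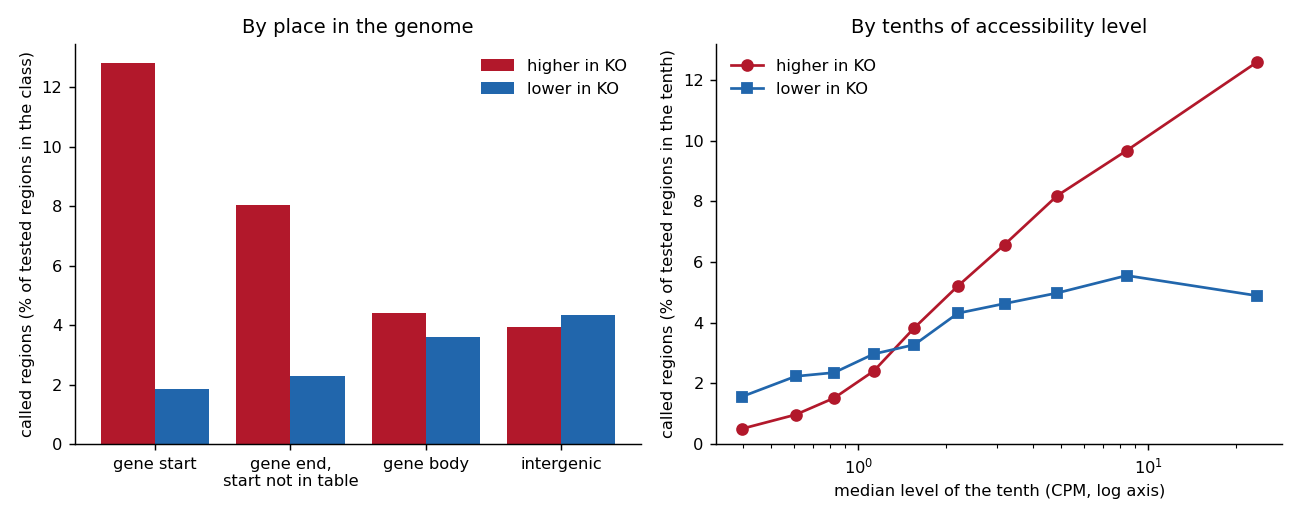
Share of tested regions called higher or lower in KO MPP (edgeR adjusted p under 0.05), in percent, by region class (left, bars from 0) and by steps of 10% in level against the median CPM of each step on a log axis (right). Gene starts had 12.8% higher and 1.86% lower regions, and the share of higher regions went from 0.507% in the lowest step to 12.6% in the highest.

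The largest gains lay at genes of heat shock chaperones. These proteins hold and refold damaged proteins, and their genes are switched on by heat shock factor HSF1, which binds inverted repeats of the motif nGAAn. Of 111 tested regions at 20 chaperone and heat shock genes, 47 (42.3%) rose and 0 fell (edgeR; 1 lower at an unadjusted p under 0.05, and 0 lower with DESeq2 and limma-voom), and 24 of the gains were at least 2-fold. At least 1 region rose at 14 of the 20 genes, and the list's median log2 fold change was 0.31 against -0.005 over all tested regions. Without each library in turn, 37 of the 47 kept their call. With the covariate 34 rose, and with DESeq2 32. No region of Ahsa1, Cryab, Hsf1, Hsf2, Hspa5 or Hspe1 passed.

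The promoters of a few of these genes are shown as examples. They were picked among promoters that rose, and each holds the heat shock motif, so they do not stand for the whole list. Each is the 250 bases before the gene start, from RefSeq on GRCm38.p6, 5′ to 3′ on the gene's strand, with matches to the heat shock motif GAANNTTC in capitals. Bst2, an interferon-induced gene described below, and Nrxn3, a neuronal adhesion gene whose promoter region lost accessibility, stand beside them. In Bst2 the capitals also mark the interferon motif GAAANNGAA. The other motifs searched on both strands and set in capitals where present, AP-1 (TGANTCA), CRE (TGACGTCA), NF-kB (GGGANTTTC), NRF1 (GCGCANGCG), E-box (CACGTG) and the CArG box, had no match in these 5 windows.
Hspa1b, chr17:34959239-34959488, minus strand: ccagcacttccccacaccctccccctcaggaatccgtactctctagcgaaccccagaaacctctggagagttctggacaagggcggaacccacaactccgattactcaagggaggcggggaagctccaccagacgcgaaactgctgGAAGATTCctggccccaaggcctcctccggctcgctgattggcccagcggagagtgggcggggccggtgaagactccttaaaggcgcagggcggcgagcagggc
Hspa1a, chr17:34972157-34972406, minus strand: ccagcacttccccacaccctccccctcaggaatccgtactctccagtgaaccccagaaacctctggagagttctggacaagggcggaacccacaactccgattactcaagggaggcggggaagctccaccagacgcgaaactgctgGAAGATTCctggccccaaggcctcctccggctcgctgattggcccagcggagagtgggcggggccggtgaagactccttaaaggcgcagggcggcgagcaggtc
Dnaja1, chr4:40722218-40722467, plus strand: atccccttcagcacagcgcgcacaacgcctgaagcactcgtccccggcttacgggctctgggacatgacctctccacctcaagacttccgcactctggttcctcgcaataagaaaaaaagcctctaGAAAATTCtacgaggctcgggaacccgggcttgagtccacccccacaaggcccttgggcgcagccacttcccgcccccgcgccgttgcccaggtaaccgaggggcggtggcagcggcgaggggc
Bst2, chr8:71537473-71537722, minus strand: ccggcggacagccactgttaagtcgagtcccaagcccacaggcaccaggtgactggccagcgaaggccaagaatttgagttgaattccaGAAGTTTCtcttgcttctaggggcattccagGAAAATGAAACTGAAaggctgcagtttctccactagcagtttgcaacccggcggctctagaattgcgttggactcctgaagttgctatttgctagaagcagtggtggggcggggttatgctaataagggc
Nrxn3, chr12:89812233-89812482, plus strand: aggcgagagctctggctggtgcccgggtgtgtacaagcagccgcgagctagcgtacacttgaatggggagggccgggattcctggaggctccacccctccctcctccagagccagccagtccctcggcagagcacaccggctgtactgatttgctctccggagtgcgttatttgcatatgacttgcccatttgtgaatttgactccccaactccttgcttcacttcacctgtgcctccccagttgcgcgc

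Hspa1a and Hspa1b encode the 2 copies of inducible HSP70, and their windows matched at 247 of 250 bases. Reads may have been split between the copies, so their separate values are uncertain. In both, the heat shock match GAAGATTC begins 104 bases before the start. In Dnaja1, a co-chaperone of HSP70, the match GAAAATTC begins 124 bases before it. Bst2 holds GAAGTTTC at -161 and interferon matches at -130 and -124, which overlap each other. No match in Nrxn3 says only that these letters are not in this window.

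Gene-start regions of chaperones rose by small amounts. At Hspa1b, chr17:34959033-34959523, the WT libraries held 42.6, 33.0 and 43.5 CPM and the KO libraries 62.1, 61.3 and 65.2 CPM, and all KO values lay above all WT values (log2 fold change 0.67 ± 0.08, adjusted p = 9.1e-05). Hspa1a, chr17:34972006-34972447, had 37.5, 31.7 and 40.4 CPM in WT and 54.2, 56.0 and 54.7 in KO (0.59 ± 0.07, adjusted p = 0.000131). Dnaja1, chr4:40722193-40722794, had 81.8, 79.1 and 76.8 CPM in WT and 106, 105 and 96.5 in KO (0.37 ± 0.06, adjusted p = 0.000939). At these 3 promoters the groups were apart, with the lowest value of all at WT replicate 2 in the pair of HSP70 genes. Of 18 gene-start regions on the list 8 rose, none of them 2-fold. Of 9 genes on the list with the heat shock motif in a promoter within a tested region 6 rose there, and of 5 genes without it 1 did. Chordc1, Hspd1 and Hspe1 held the motif and did not pass, and Dnajb4 rose without it. The genes counted are not all separate observations, since Hspd1 and Hspe1 share 1 region and Hspa1a and Hspa1b are near copies. Of all promoters within tested regions 13.8% rose, with 19.7% of those holding the motif and 13.5% of those without it. Over all promoters, 7.21% held the motif. It was in 5.30% of the 11388 promoters within tested regions and in 7.56% of the 1575 within higher regions.

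The larger gains lay inside and just beyond the genes. Of 30 gene-body regions on the list 20 rose, 14 of them at least 2-fold. At Hsph1, which encodes the HSP110 chaperone, 9 of 13 regions rose. In its gene body at chr5:149628445-149629619 the WT libraries held 2.22, 0.701 and 2.43 CPM and the KO libraries 10.6, 9.56 and 8.49 CPM, for a change of 2.49 ± 0.22 on the log2 scale (adjusted p = 1.53e-06). The groups were far apart, and WT replicate 2 was the lowest. Its gene-start region, chr5:149636186-149636924, went from 86.2, 83.4 and 80.2 CPM to 98.8, 96.0 and 96.4, which is 0.22 ± 0.06 on the log2 scale (adjusted p = 0.0193), and its call was kept without 2 of the 6 libraries in turn. Another gene-body region, chr5:149626966-149627367, had 0.647, 0.330 and 0.439 CPM in WT and 3.57, 2.61 and 2.95 in KO (2.68 ± 0.23).

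The same pattern was seen at other chaperones. The region 2355 bp beyond Dnajb1, an HSP40 co-chaperone, chr8:83615008-83615409, held 2.07, 0.824 and 1.89 CPM in WT and 6.67, 6.56 and 5.52 in KO (2.02 ± 0.20, adjusted p = 9.53e-06). Dnajb4, another HSP40 gene, had 8 of 10 regions higher, among them chr3:152185592-152186334 with 0.722, 0.515 and 1.45 CPM in WT and 3.91, 2.83 and 2.44 in KO (1.84 ± 0.25). The KO libraries were above all WT libraries at both. Hspa1b had 6 of 7 regions higher, and 105 bp beyond the gene, at chr17:34955421-34956324, WT held 15, 4.29 and 17.4 CPM and KO 39.0, 40.3 and 44.3 (1.79 ± 0.24, adjusted p = 0.000225). Hsp90aa1, the inducible HSP90, had 5 of 11 regions higher, Hspa8, the constitutive HSP70, 3 of 9, and Hspd1, the mitochondrial HSP60, 3 of 3. These Hspd1 regions had group means of 0.366 to 3.85 CPM, and not all kept their call without each library. The promoter region that Hspd1 shares with Hspe1 was assigned to Hspe1 and did not pass (0.098 ± 0.064, edgeR adjusted p = 0.358). Zfand2a, an arsenite- and heat-inducible zinc finger gene not on the list, had 1.20, 0.969 and 1.11 CPM in WT and 3.37, 3.34 and 2.89 in KO in its gene body at chr5:139479006-139479496 (1.55 ± 0.17, adjusted p = 2.75e-05).

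The WT libraries were not alike at these regions. WT replicate 2 was the lowest of the 3 WT libraries at 34 of the 47 higher chaperone regions (72.3%), against 3251 of all 9237 higher regions (35.2%). Without WT replicate 2, 42 chaperone regions rose. Summed over the 32 gene-end regions of the list, the levels were 1148, 1037 and 1094 CPM in WT and 1400, 1365 and 1375 CPM in KO, so the groups were apart and the KO libraries were the more alike. In LT-HSC, whose libraries are separate, 42 regions of the list rose, and the log2 fold change there was 2.77 at the Hsph1 gene-body region, 1.94 at Dnajb1 and 2.20 beyond Hspa1b.

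**Figure D2:**
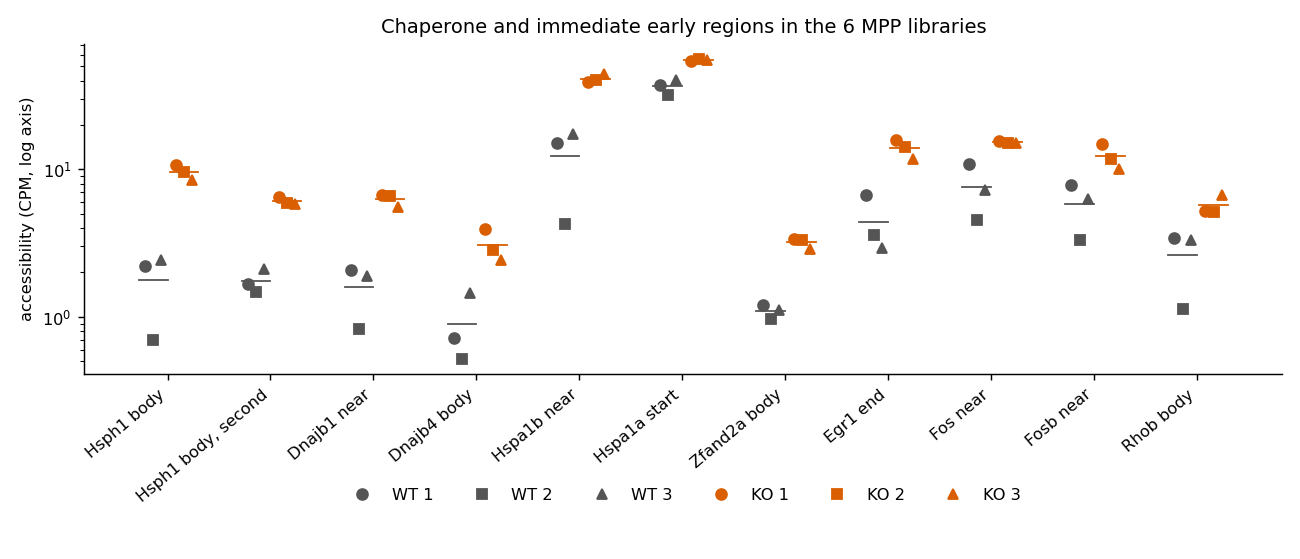
CPM on a log axis in each MPP library at 11 regions of chaperone, immediate early and other stress-inducible genes, WT in grey and KO in orange, with symbols for replicates 1 to 3 and lines at group means. At Hsph1, Dnajb1 and Hspa1b the KO libraries lie above all WT libraries, and WT replicate 2 is the lowest WT library.

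Immediate early genes, which cells switch on within minutes of a stimulus and which include the AP-1 factors Fos and Jun, gained accessibility as well. Of 379 regions at 25 such genes 70 (18.5%) rose and 4 (1.06%) fell, against 5.15% and 3.68% of all tested regions. The list's median log2 fold change was 0.16, and 23 genes had a higher region. At Egr1, a zinc finger factor induced by growth signals, the gene-end region chr18:34864965-34865773 held 6.75, 3.59 and 2.94 CPM in WT and 15.9, 14.1 and 11.7 CPM in KO. All KO values were well above all WT values (1.63 ± 0.18, adjusted p = 2.94e-05). A region 1014 bp beyond Fos, chr12:85478288-85479018, held 10.8, 4.55 and 7.23 CPM in WT and 15.5, 15.1 and 15.1 in KO (1.03 ± 0.17, adjusted p = 0.00105), and 10 of 37 regions at Fos rose. The KO libraries were close together there and the WT libraries spread widely. Fosb had 7.79, 3.34 and 6.28 CPM in WT and 14.8, 11.8 and 10.1 in KO at chr7:19301062-19301536 (1.08 ± 0.18), and 5 of its 14 regions rose. Klf6, a Krüppel-like factor, had 10 of 29 regions higher and Nr4a1, an orphan nuclear receptor, 8 of 17. WT replicate 2 was the lowest WT library at 37 of the 70 higher regions (52.9%). This list depended on the libraries and the fit more than the chaperones did, with 49 regions higher without WT replicate 2, 43, 31 and 36 without KO replicates 1, 2 and 3, 35 with DESeq2 and 5 with the covariate. Rhob, a small GTPase of the early response outside the list, had 3.41, 1.13 and 3.31 CPM in WT and 5.19, 5.14 and 6.72 in KO (1.18 ± 0.23, adjusted p = 0.00316). The covariate ended the calls given here for Fos, Fosb and Rhob, and DESeq2 those for Fosb and Rhob, whereas Egr1 kept its call. The AP-1 motif was in 4.94% of promoters within tested regions and in 4.19% of those within higher regions.

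Genes of TNF and NF-kB signalling, an inflammatory response, had 33 of 298 regions higher (11.1%) and 3 lower (1.01%). Among all tested regions the shares were 5.15% and 3.68%. Tnfaip3, a feedback inhibitor of NF-kB, had 8 of 34 higher. A region 74747 bp from Cebpb, a factor of emergency myelopoiesis, held 5.78, 5.13 and 6.65 CPM in WT and 9.26, 9.73 and 10.8 in KO (0.78 ± 0.11, adjusted p = 0.000309). At the end of Nfkbiz, a nuclear NF-kB cofactor, levels were 0.747, 0.721 and 1.01 CPM in WT and 1.98, 1.77 and 1.77 in KO (1.17 ± 0.20, adjusted p = 0.00158). At both genes the groups were apart in all libraries. Without KO replicate 2 the list had 11 higher regions, and with the covariate 5.

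Interferon response genes had 15 of 135 regions higher (11.1%) and 4 lower (2.96%), against 5.15% and 3.68% of all tested regions. They moved in both directions. Bst2, which encodes tetherin, an antiviral membrane protein, had 28.3, 24.7 and 24.7 CPM in WT and 35.0, 33.5 and 36.4 in KO at its promoter, chr8:71537282-71537742 (0.43 ± 0.07, adjusted p = 0.00131). The promoter is shown above, and its call ended with the covariate. The region near Ifitm3, which blocks virus entry, fell instead, from 27.4, 29.8 and 29.3 CPM to 22.1, 21.3 and 20.9 CPM (-0.43 ± 0.07, adjusted p = 0.0012). The interferon motif was in 7.00% of promoters within tested regions, 10.1% of those within higher regions and 6.61% of those within lower regions. Without KO replicate 3 the list had 5 higher regions.

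Genes that define LT-HSC were examined in these progenitors. Of 837 regions at 24 stem cell identity genes, 72 (8.60%) rose and 9 (1.08%) fell, beside 5.15% and 3.68% of all tested regions, and 20 genes had a higher region. A gene-body region of Gata2, a zinc finger factor needed for stem cell maintenance, chr6:88203003-88203461, held 21.8, 21.4 and 24.2 CPM in WT and 34.0, 34.2 and 32.1 CPM in KO. The groups were well apart (0.58 ± 0.07, adjusted p = 0.000131), and 6 of 14 Gata2 regions rose. At a start of Erg, an ETS factor of stem cells and endothelium, chr16:95458680-95459813, levels were 22.6, 20.5 and 24.1 CPM in WT and 27.4, 33.4 and 33.8 in KO (0.50 ± 0.08, adjusted p = 0.00118). A region 7742 bp from Procr, the EPCR receptor used to sort stem cells, had 15.4, 13.8 and 16.3 CPM in WT and 21.5, 20.6 and 20.3 in KO (0.46 ± 0.08, adjusted p = 0.00177). Mecom had 9 of 86 regions higher and 1 lower, the niche factor Angpt1 8 of 64, Meis1 7 of 68 and Runx1 7 of 113 higher. Runx1 lay near the share of all tested regions. At the gene ends of 7 LT-HSC markers the log2 fold changes were 0.02 at Procr, 0.18 at Fgd5, -0.20 at Hoxb5, 0.01 at Ctnnal1, 0.45 at Slamf1, 0.01 at Hlf and 0.13 at Mecom. Of these only Slamf1 passed (adjusted p = 0.0497), and that call was kept without 1 of the 6 libraries in turn. Without KO replicate 2 or 3 the list had 26 or 20 higher regions, and with the covariate 16.

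Genes of MPP and lymphoid priming had 36 of 459 regions higher (7.84%) and 8 lower (1.74%), against 5.15% and 3.68% of all tested regions. Ikzf2, which encodes the zinc finger factor Helios, had 10 of 48 higher, among them chr1:69606805-69607251 with 12.3, 12.7 and 11.3 CPM in WT and 16.2, 18.1 and 16.8 in KO (0.49 ± 0.08, adjusted p = 0.0015), a call that ended with the covariate. Flt3 went the other way, with 2 of 21 regions lower. Its gene-end region, chr5:147400187-147400598, held 59.0, 60.2 and 58.0 CPM in WT and 51.5, 47.8 and 44.9 CPM in KO (-0.30 ± 0.06, adjusted p = 0.00647). All KO libraries lay below all WT libraries, and the call was lost without KO replicate 2 or 3 (adjusted p up to 0.0655). The gene-end regions of Cd48 and of Mpo had log2 fold changes of 0.34 ± 0.10 and 0.30 ± 0.09 (adjusted p = 0.0335 and 0.0389), calls that several fits did not keep.

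Among lineage genes, those of megakaryocytes and erythroid cells had 29 of 222 regions higher (13.1%) and 2 lower (0.901%). All tested regions had 5.15% higher and 3.68% lower. Zfpm1, which encodes the GATA partner FOG1, had 6 of 27 higher, among them chr8:122319395-122319959 with 2.86, 2.64 and 2.46 CPM in WT and 4.65, 4.79 and 4.55 in KO (0.81 ± 0.13, adjusted p = 0.000744). A gene-body region of Vwf, a platelet adhesion factor, fell from 3.24, 5.11 and 3.55 CPM to 2.09, 2.36 and 1.47 (-1.02 ± 0.18, adjusted p = 0.00191). Both calls ended with the covariate. Myeloid genes had 17 of 235 regions higher (7.23%) and 7 lower, with a list median of -0.02. Without KO replicate 3 there was 1 higher and 3 lower, and without KO replicate 2 4 higher, so the list had no direction that held. A higher region lay at the start of Gfi1, a repressor of granulocyte development, with 5.43, 4.51 and 4.69 CPM in WT and 7.36, 8.45 and 7.42 in KO (0.67 ± 0.11, adjusted p = 0.00108; not called with the covariate).

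At T cell genes losses outnumbered gains, with 3 of 231 regions higher (1.30%) and 13 lower (5.63%). Among all tested regions the shares were 5.15% and 3.68%. Of the 139 regions overlapping these genes or within 10 kb, 2 rose and 4 fell (2.88%), below the share of all tested regions. Cd2 had 3, and Bcl11b, Cd28 and Lef1 had 2 lower regions each. At the end of Cd28, a co-stimulatory receptor, WT libraries held 12.7, 14.9 and 11.9 CPM and KO libraries 10.5, 8.77 and 7.64 CPM, without overlap (-0.57 ± 0.11, adjusted p = 0.00288). Without KO replicate 2 the list had 0 higher and 2 lower regions, and with the covariate 1 and 1. B cell genes had 2 of 159 regions higher and 6 lower, NK cell genes 5 of 75 higher and 3 lower, and macrophage and endothelial genes 4 of 180 higher and 6 lower. In that last list a gene-body region of Cdh5, the endothelial cadherin, fell from 5.85, 5.61 and 6.35 CPM to 3.37, 2.90 and 3.32 (-0.89 ± 0.12, adjusted p = 0.000247).

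**Figure D3:**
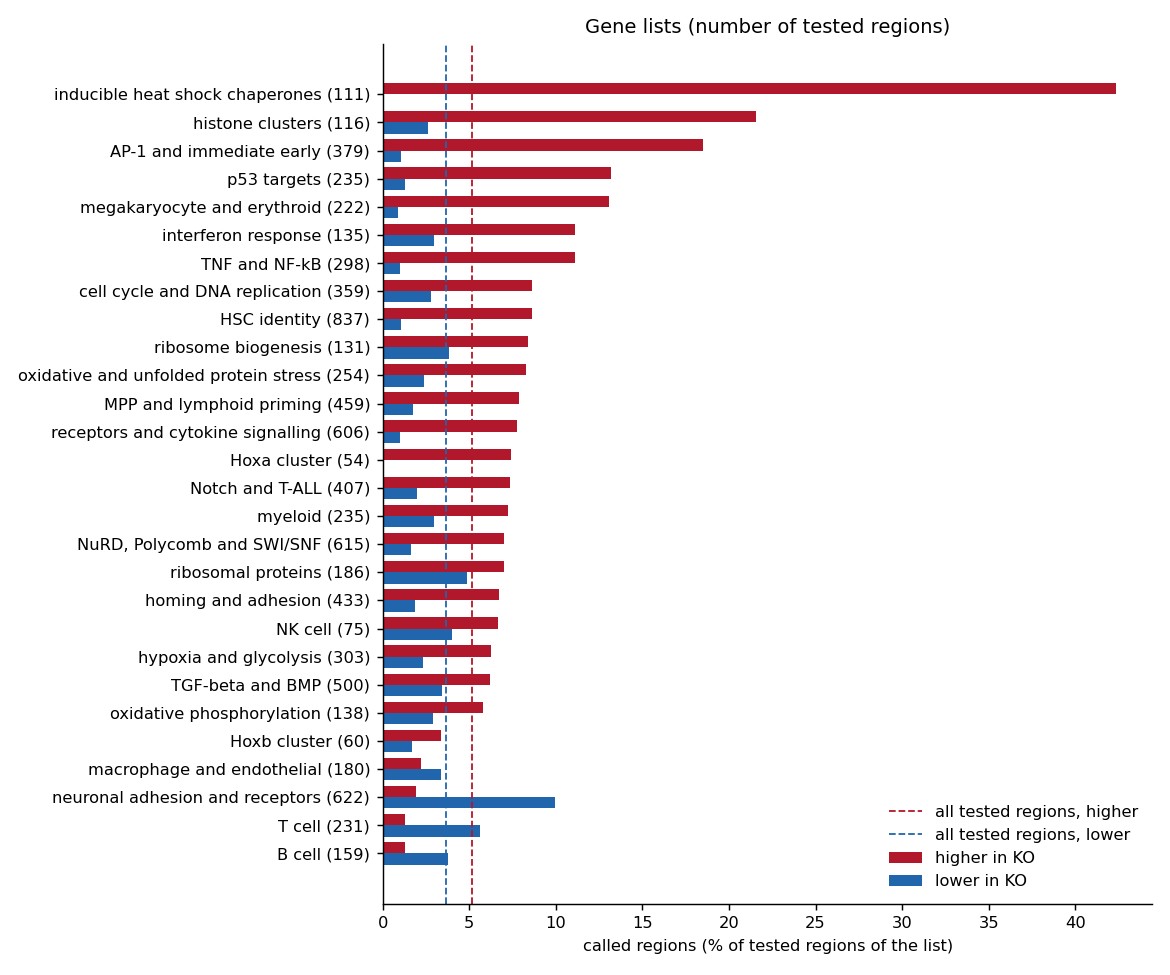
Share of tested regions called higher or lower in KO MPP, in percent, for each gene list, with dashed lines at the shares of all tested regions (5.15% and 3.68%). The heat shock list had 42.3% higher regions, and the neuronal adhesion list had the most lower ones, 9.97%.

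Cell cycle and replication genes had 31 of 359 regions higher (8.64%) and 10 lower (2.79%), beside 5.15% and 3.68% of all tested regions. The list had 8 higher and 2 lower regions without KO replicate 2, and 4 and 1 with the covariate. The promoter of Cdkn2c, the CDK inhibitor p18, which limits stem cell cycling, held 4.58, 4.37 and 4.79 CPM in WT and 7.44, 7.45 and 8.12 in KO (0.75 ± 0.11, adjusted p = 0.000354). Cdk6, a kinase that p18 inhibits, had 10 of 89 regions higher, among them chr5:3501317-3502146 with 7.44, 6.94 and 6.55 CPM in WT and 11.2, 11.3 and 10.4 in KO (0.65 ± 0.10, adjusted p = 0.000486). At both the groups were clearly apart. Gene-body regions of Rb1, the retinoblastoma protein, and of Mcm6, a replication helicase subunit, rose by 1.02 ± 0.18 and 0.70 ± 0.12 on the log2 scale (adjusted p = 0.00204 and 0.00103).

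Targets and regulators of p53 had 31 of 235 regions higher (13.2%) and 3 lower (1.28%), against 5.15% and 3.68% of all tested regions. Near Mdm4, an inhibitor of p53, levels were 8.84, 7.77 and 8.78 CPM in WT and 12.2, 13.2 and 16.3 in KO (0.73 ± 0.11, adjusted p = 0.000453). The promoter of Plk2, a stress-induced kinase, had 19.8, 18.9 and 22.3 CPM in WT and 27.6, 28.1 and 26.6 in KO (0.44 ± 0.08, adjusted p = 0.00164). No WT and KO values overlapped at either. Gadd45a, a DNA damage response gene, had 6 of 22 regions higher. Without KO replicate 2 the p53 list had 9 higher regions, and with the covariate 5.

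Receptor and cytokine signalling genes had 47 of 606 regions higher (7.76%) and 6 lower (0.99%), against 5.15% and 3.68% of all tested regions. In the gene body of Jak2, the kinase behind thrombopoietin and erythropoietin signals, chr19:29271047-29271633 held 5.05, 4.92 and 6.89 CPM in WT and 10.1, 11.8 and 10.1 in KO (0.94 ± 0.12, adjusted p = 0.000128). At Cish, a feedback inhibitor induced by STAT5, levels were 2.34, 2.51 and 2.36 CPM in WT and 4.3, 4.74 and 4.85 in KO (0.95 ± 0.13, adjusted p = 0.000273). Both regions were near 2-fold higher in KO, with no overlap. Igf1r, the IGF1 receptor, had 7 of 76 regions higher, Jak2 6 of 23 and Stat5b 5 of 21. Homing and adhesion genes had 29 of 433 higher (6.70%) and 8 lower, and near the laminin receptor subunit Itga6 levels went from 4.48, 3.73 and 5.30 to 7.52, 7.72 and 8.31 CPM (0.82 ± 0.12, adjusted p = 0.000474). Notch and T cell leukaemia genes had 30 of 407 higher (7.37%) and 8 lower. TGF-beta and BMP genes had 31 of 500 higher (6.20%) and 17 lower (3.40%), near the shares of all tested regions.

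Chromatin regulators of the NuRD, Polycomb and SWI/SNF complexes, of which NuRD is a known partner of PHF6, had 43 of 615 regions higher (6.99%). On this list 10 (1.63%) fell, and over all tested regions 5.15% rose and 3.68% fell. In Jarid2, a Polycomb cofactor, chr13:44869423-44869831 held 44.6, 42.8 and 36.0 CPM in WT and 60.2, 58.1 and 69.8 in KO (0.61 ± 0.08, adjusted p = 0.000183). Regions at the SWI/SNF genes Smarca2 and Arid1b rose by 0.85 ± 0.13 and 0.93 ± 0.15 on the log2 scale (adjusted p = 0.000573 and 0.000997). Hoxa cluster genes had 4 of 54 regions higher, with a list median of 0.20, and Hoxb genes 2 of 60 higher and 1 lower. Histone genes, a list added after their values were seen, had 25 of 116 regions higher (21.6%) and 3 lower. WT replicate 2 was the lowest WT library at 19 of the 25, and 10 rose without WT replicate 2, 39 without WT replicate 3, 6 without KO replicate 2 and 5 without KO replicate 3.

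Since PHF6 is found in the nucleolus, the genes of ribosome production were examined as well. Ribosome biogenesis genes had 11 of 131 regions higher (8.40%) and 5 lower (3.82%), and ribosomal protein genes 13 of 186 higher (6.99%) and 9 lower (4.84%). All tested regions had 5.15% higher and 3.68% lower. Polr1a, which encodes the catalytic subunit of RNA polymerase I, moved both ways. Its promoter held 25.9, 23.0 and 21.5 CPM in WT and 31.6, 33.9 and 33.4 in KO (0.49 ± 0.08, adjusted p = 0.000674). A region in its gene body, chr6:71925235-71925698, held 12, 12.3 and 14.9 CPM in WT and 8.26, 8.38 and 7.45 in KO (-0.70 ± 0.10, adjusted p = 0.000446). At Ubtf, the polymerase I factor UBF, a start region went from 6.0, 5.63 and 5.27 CPM to 8.49, 9.24 and 9.38 (0.68 ± 0.10, adjusted p = 0.000541). Oxidative phosphorylation genes had 8 of 138 regions higher (5.80%) and 4 lower. With total-count scaling 4 rose and 7 fell on that list and 9 rose and 10 fell among ribosomal proteins, so neither list had a direction that held. Oxidative and unfolded protein stress genes had 21 of 254 higher (8.27%) and 6 lower, with catalase (Cat) at 2.22, 2.12 and 2.06 CPM in WT and 4.61, 4.15 and 4.05 in KO (0.99 ± 0.14, adjusted p = 0.000273). Hypoxia and glycolysis genes had 19 of 303 higher (6.27%) and 7 lower. The counts were 3 and 2 without KO replicate 2, 2 and 3 without KO replicate 3 and 1 and 2 with the covariate. These calls are too few to give a direction, and the list's median log2 fold change stayed above 0 (0.06, 0.03 and 0.05). The start of the glycolytic gene Pgk1, on X, fell from 71.3, 77.4 and 72.7 CPM to 38.5, 34.8 and 62.1 (-0.71 ± 0.12, adjusted p = 0.00172), with KO replicate 3 nearer to WT, and DESeq2 did not call it.

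A few genes lost accessibility at many of their regions. Adcy2, which encodes an adenylyl cyclase expressed mainly in brain, had 13 of 16 tested regions lower, and at all 16 every KO library lay below every WT library. The called log2 fold changes ran from -2.21 to -0.79, and 10 of the 13 kept their call without each library. Summed over its regions, Adcy2 had 46.7, 48.1 and 50.6 CPM in WT and 26.4, 21.6 and 21.2 CPM in KO. Its most open named region, chr13:68928452-68928886, held 17.0, 16.2 and 18.7 CPM in WT and 10, 6.71 and 8.06 in KO (-1.08 ± 0.11, adjusted p = 1.53e-05). Its start, chr13:68999474-68999970, fell with the rest, from 3.81, 3.30 and 4.29 to 2.02, 1.57 and 1.45 CPM (-1.19 ± 0.16, adjusted p = 0.000249). In LT-HSC, 3 of the 13 regions also passed as lower. No Adcy2 region was among the 15 that passed the interaction test given below, so this count does not show a larger loss in MPP.

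Ctnnd2, a delta-catenin of neurons, had 12 of 24 regions lower. Of these 12, 4 kept their call without each library and 3 also passed as lower in LT-HSC. Its summed level was 49.4, 49.0 and 49.6 CPM in WT and 35.0, 30.6 and 32.3 CPM in KO. The WT libraries were nearly equal and the KO libraries all lower. At chr15:30610578-30611048 levels went from 14.1, 15.7 and 13.8 CPM to 9.22, 7.89 and 8.98 (-0.75 ± 0.09, adjusted p = 0.000131). The 12 lower Ctnnd2 regions lay in the 1 Mb window with the highest share of losses among 1877 windows with at least 20 tested regions. That window, on chromosome 15, had 12 of 24 lower, and its tested regions are not the same set as those of the gene. Windows at Dab1 (8 of 23 lower), Agbl1 (8 of 23) and Adcy2 (11 of 33) came next. They were followed by chr12:114000001-115000000 (19 of 65), whose lower regions had no protein-coding gene within 100 kb. Genes and gene segments of other types were not used for naming, so this window is not shown to be empty of them. Of the 1877 windows 132 had at least 10% lower regions and 145 at least 10% higher.

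**Figure D4:**
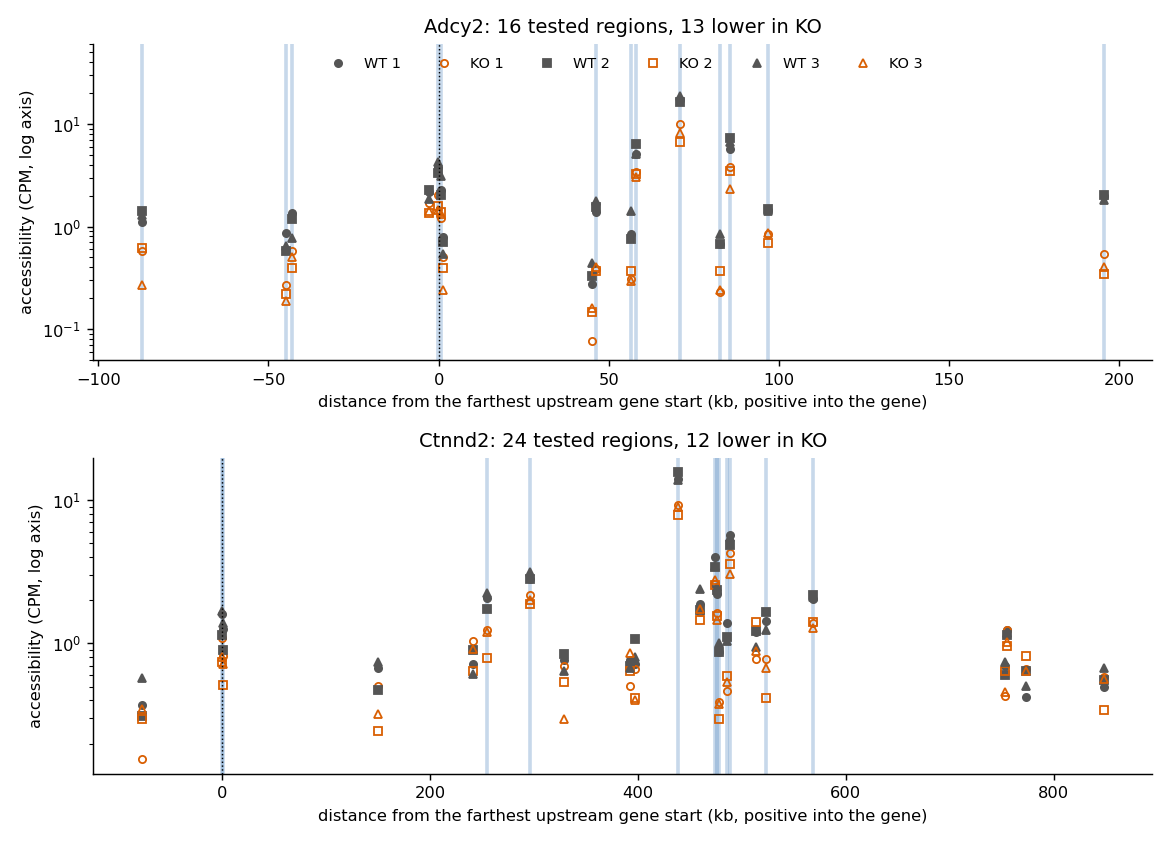
CPM on a log axis in each MPP library at the tested regions of Adcy2 and Ctnnd2, by distance in kb from the farthest upstream gene start, WT in grey and KO in orange, with blue lines at regions called lower. At Adcy2 13 of 16 regions and at Ctnnd2 12 of 24 were lower in KO.

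Sorcs2, a sorting receptor of the VPS10 family for neurotrophins, had 25 of 61 regions lower, the most of any gene. Its summed level was 218, 221 and 225 CPM in WT and 176, 163 and 162 CPM in KO. At chr5:36089175-36089661 WT held 23.7, 22.3 and 23.2 CPM and KO 12.8, 10.3 and 9.14 CPM, far apart in all libraries (-1.11 ± 0.10, adjusted p = 1.53e-06). Without each library 8 of the 25 kept their call, and 16 of the 25 also fell in LT-HSC. Over the neuronal adhesion and receptor list, 62 of 622 regions fell (9.97%) and 12 rose (1.93%), against 3.68% and 5.15% of all tested regions. The list's median log2 fold change was -0.16. Besides Sorcs2, Nrxn3, a neurexin, had 9 of 34 lower and Sdk1, a sidekick adhesion protein, 8 of 38, while Pcdh7, a protocadherin, had 6 of 30 higher. The start of Nrxn3, chr12:89812125-89812588, whose upstream sequence is shown above, went from 3.71, 4.37 and 5.81 CPM to 2.71, 2.43 and 1.98 (-0.96 ± 0.16, adjusted p = 0.00128). At 18 of the 32 genes with tested regions no region passed. Without KO replicate 2 the list had 23 lower regions, without KO replicate 3 25, with DESeq2 25 and with the covariate 10.

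Other genes with many losses were Snx29 (11 of 85 lower, 3 higher), Gli2 (10 of 33), Magi1 (10 of 53), Nav2 (10 of 104), Hdac4 (9 of 55, 1 higher) and Nfasc (8 of 20). Among single regions, the largest loss above the median level was in Agbl1, a tubulin-modifying carboxypeptidase gene, at chr7:76408170-76408608, with 3.09, 3.54 and 2.77 CPM in WT and 1.05, 0.860 and 1.10 in KO (-1.67 ± 0.18, adjusted p = 2.41e-05). Rasgrf2, a Ras exchange factor, fell from 3.19, 3.65 and 2.97 CPM to 1.24, 1.16 and 1.15 (-1.48 ± 0.16, adjusted p = 3.51e-05), and Slc16a14, a transporter, from 3.19, 2.74 and 2.73 to 1.16, 1.01 and 0.991 (-1.47 ± 0.17, adjusted p = 6.6e-05). In all 3 the KO values were close together. At Zfp791 the KO libraries disagreed, with 0.349, 0.270 and 2.33 CPM against 2.39, 2.93 and 2.84 in WT (-1.41 ± 0.38, adjusted p = 0.0221), and the call was lost without KO replicate 1 or 2.

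Gains were also counted per gene. Of 18355 genes with a tested region, 5454 had a higher and 3813 a lower one, 1201 of them both, and at least 5 regions rose at 203 genes and fell at 91. Pde4d, a cAMP phosphodiesterase, had the most gains, 19 of 162 regions, with 3 lower. Next came Mbnl1, a splicing regulator (15 of 79), Gse1, a chromatin corepressor subunit (13 of 141, 2 lower), Zeb2, a repressor needed for blood differentiation (12 of 55), and Vmp1, a membrane protein of autophagy (11 of 21). A region at a start of Zeb2, chr2:45113855-45114257, held 1.12, 1.07 and 1.65 CPM in WT and 2.52, 2.80 and 3.40 in KO (1.23 ± 0.18, adjusted p = 0.000587). Near Vmp1 levels went from 5.15, 4.97 and 5.27 to 8.10, 7.67 and 8.22 CPM (0.64 ± 0.10, adjusted p = 0.000826). Outside the lists, Trim37, a ubiquitin ligase of centrosomes, had 1.27, 1.01 and 1.42 CPM in WT and 3.02, 3.44 and 3.32 in KO (1.44 ± 0.17, adjusted p = 5.88e-05), and Ctla2a, a cysteine protease inhibitor, 2.14, 2.20 and 2.50 against 4.92, 4.47 and 6.08 CPM (1.19 ± 0.14, adjusted p = 7.72e-05). At each of these the groups did not overlap. By window, the highest share of gains was 7 of 22 regions in a window of chromosome 13 with Prss16 and histone genes. It was followed by 7 of 25 in a window of chromosome 5 with Crlf2, 13 of 49 in that of Plscr2 and Plscr1 on chromosome 9, 28 of 115 in the window of chromosome 13 with Trim27 and histone genes, and 12 of 51 around Klf6.

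Regions near the engineered alleles were counted apart. Within 10 Mb of Phf6 4.25% of 447 regions rose and 2.68% fell, against 3.94% and 2.02% on the rest of X. Within 10 Mb of Setd5, which lies beside Rosa26, 3.40% of 1499 regions rose and 3.94% fell, against 5.22% and 4.06% on the rest of chromosome 6.

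Promoters were also described by their base composition. Ordered by CpG ratio and divided into 3 equal sets, from low to high, 11.1%, 14.8% and 15.6% rose. The ETS motif CCGGAAG was in 17.2% of promoters within tested regions, 22.9% of those within higher and 7.49% of those within lower regions. The NRF1 motif was in 13.1%, 15.3% and 4.85%, and the GC box GGGCGG in 65.6%, 62.3% and 57.3%. The RUNX motif TGTGGT went the other way, with 12.7%, 10.98% and 20.3%, and the GATA motif AGATAA was in 5.90%, 7.17% and 1.76%. Over all 21263 promoters, the ETS, NRF1, GC box, RUNX and GATA motifs were in 11.6%, 8.58%, 46.2%, 14.97% and 9.65%. These matches overlap in sequence and are a description, with 227 promoters in lower regions.

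Most regions called in MPP moved in the same direction in LT-HSC. In the fit of all 12 libraries 8834 regions of 186373 (4.74%) were called in LT-HSC, 6093 higher and 2741 lower. Regions higher in both populations numbered 2631, which is 28.5% of those higher in MPP and 43.2% of those higher in LT-HSC. Lower in both were 829, or 12.6% and 30.2%, and 9 regions were called in opposite directions. Regions higher in MPP had a median log2 fold change of 0.49 there and 0.27 in LT-HSC. In LT-HSC 91.1% of them were above 0, against 50.1% of all tested regions. Regions lower in MPP had -0.59 and -0.28, with 89.1% below 0 in LT-HSC. Both sets were chosen by their values in MPP, which makes the MPP medians larger. The medians therefore do not show that the change was smaller in LT-HSC.

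The difference between the populations was itself tested by the interaction of KO and population. It passed at 15 regions (0.00805%), each with a higher ratio of KO to WT in MPP than in LT-HSC in this fit, and 14082 had an unadjusted p under 0.05. Limma-voom called 8. The count moved between 5 and 22 when 1 MPP library was left out, with 5 without KO replicate 3 and 22 without WT replicate 3. The direction was not fixed either: without WT replicate 3 the ratio was higher in MPP at 13 and lower at 9, and with total-count scaling higher at 24 and lower at 3. With a block joining MPP and LT-HSC libraries of the same number within a genotype it was higher at 91 and lower at 142. In 12 of the 15 all WT MPP libraries lay below all KO MPP libraries, and in 8 all KO LT-HSC libraries lay below all WT LT-HSC libraries. Of the 15, 14 were above the 90th percentile of level. WT replicate 3 was the lowest WT MPP library in 13 and KO replicate 3 the highest KO MPP library in 14.

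**Figure D5:**
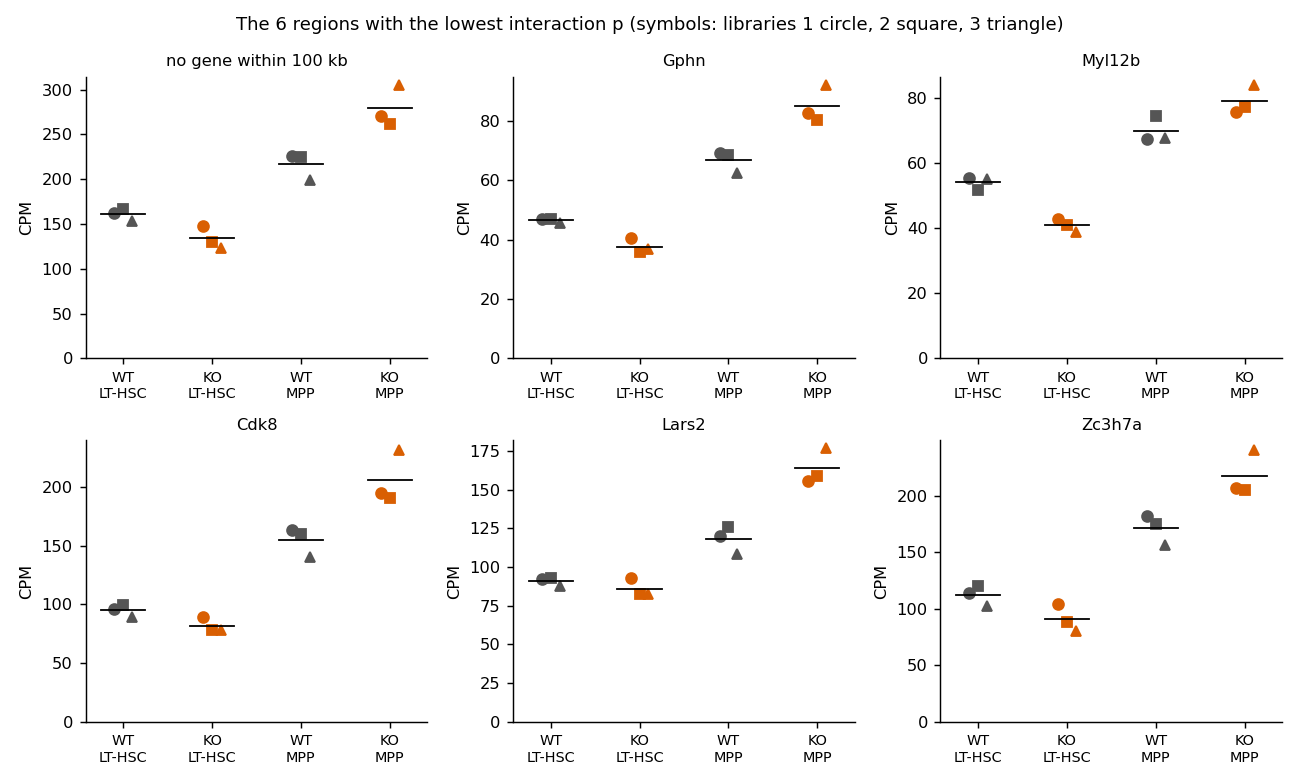
CPM in all 12 libraries at the 6 regions with the lowest interaction p, from 0, for WT and KO LT-HSC and WT and KO MPP, with bars at group means. At the region in Gphn, for example, WT LT-HSC lie at 45.7 to 47.1 and KO LT-HSC at 35.7 to 40.6 CPM, and WT MPP at 62.6 to 69.2 and KO MPP at 80.1 to 91.9 CPM.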

How the data were processed

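The 6 MPP libraries, 3 per genotype, were analysed from raw counts of reads per region that the authors deposited in 1 table for all 12 libraries, with no normalization. The build was GRCm38 and the tools included DESeq2 1.22.1, MACS2 2.1.1, featureCounts, Bowtie2 and cutadapt, per the submitters' processing notes. The sources used here do not give how the union set of regions was made or duplicates were treated, and background outside regions could not be seen. The table holds 188262 regions of 402 to 3503 bp (median 453), and total counts of the MPP libraries ran from 26399192 to 48547234.

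The tests used edgeR 4.0.16 under R 4.3.3 (TMM, filterByExpr, quasi-likelihood F test, 2-sided, Benjamini-Hochberg over 179470 regions, threshold 0.05), with 8792 regions left out as low. The biological coefficient of variation was 8.13%. SE is the log2 fold change divided by the square root of F. LT-HSC values and the interaction came from 1 fit of all 12 libraries. On simulated counts the fit was checked before use. Regions were placed against 21900 RefSeq protein-coding genes, of which 17492 (79.9%) had a start in the promoter table, and 91.6% of regions were assigned a gene. Promoters run from 250 bases before to 50 after a start, and were placed in a region that holds at least 150 of these bases.

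Named regions were those at Phf6, the 15 with the largest change per direction above the median level, up to 4 per gene list with the lowest p, those at the 10 genes with the most calls per direction, the 6 with the highest level, those nearly closed (under 0.5 CPM) in 1 group and above 1.5 in the other, the leading 1 Mb windows and interaction regions. The comparison, the gene lists (27, plus histones) and this rule were chosen with earlier results of these data known. Same-numbered WT and KO MPP libraries did not deviate together (r = -0.03, 0.02 and -0.02), so numbers were not used as pairs. The alternatives were RLE, total-count and loess scaling, DESeq2 1.42.0, limma-voom 3.58.1, no filter, at least 1 CPM in 3 libraries, all 12 libraries, a replicate block, the gene-end share as a covariate, autosomes alone, an adjusted p under 0.01 and leaving out each library. Regions per list under each alternative, and the covariate fit per class, were added after the data were seen.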

Additional observations from a re-analysis of the deposited data

Results flagged for a closer look

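The KO effect differed between MPP and LT-HSC at 6 regions with the lowest p of the interaction (edgeR, 12 libraries), each with a higher ratio of KO to WT in MPP; the difference of the log2 fold changes is given with its SE. At chr3:5860442-5860845, with no gene within 100 kb, it was 0.63 ± 0.09 (adjusted p = 0.00227), with 161 ± 6.59 CPM in WT and 134 ± 12.7 in KO LT-HSC against 217 ± 15.3 in WT and 279 ± 22.8 in KO MPP (SD, n = 3). In Gphn, which encodes the synaptic scaffold gephyrin, it was 0.649 ± 0.089 (adjusted p = 0.00227). Near Myl12b, a myosin light chain gene, it was 0.580 ± 0.086 (adjusted p = 0.00653), and there the MPP change alone, 0.18 ± 0.06, did not pass (adjusted p = 0.0561) while the LT-HSC change of -0.40 ± 0.06 did (adjusted p = 0.000277). In Cdk8, a Mediator kinase gene, it was 0.628 ± 0.094 (adjusted p = 0.00653), with 95.1 and 81.9 CPM in WT and KO LT-HSC and 155 and 206 in MPP. In Lars2, the mitochondrial leucyl-tRNA synthetase gene, it was 0.552 ± 0.085 (adjusted p = 0.00857), and in Zc3h7a, a zinc finger gene, 0.642 ± 0.102 (adjusted p = 0.0146). All 6 are 402 to 435 bp long and lie among the regions with the most counts, between percentiles 99.17 and 99.99 of level. Another of the 15 regions, chr17:39847645-39848046, overlaps the pseudogene Rn18s-rs5 (18S ribosomal RNA), with 367 CPM in WT and 485 in KO MPP. The part of reads from sequence present in many copies in these counts was not tested.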

How the results depend on the processing

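The number of regions was sensitive to the fit. DESeq2 gave no adjusted p to 76650 of 188262 regions, which it could therefore not call. Higher regions numbered 5584 with DESeq2, 1126 with gene-end share as covariate, 2763 at an adjusted p under 0.01 and 2539 to 9240 when 1 library was left out. Lower regions numbered 3009, 724, 1585 and 1548 to 6871 in the same order. Regions at least 2-fold higher numbered 100 with DESeq2, 285 with the covariate, 203 at 0.01, 140 with at least 1 CPM in 3 libraries and 211 to 698 with 1 library left out, and at least 2-fold lower ones 135, 257, 332, 295 and 395 to 1019. Interaction regions numbered 8 with limma-voom, 27 with total-count scaling and 5 to 22 with 1 MPP library left out. Replicate numbers did not pair WT with KO libraries, but each MPP library correlated best with the LT-HSC library of its own number (r from 0.054 to 0.114), a hint from the data and not from the design. With a block for replicate number across WT and KO, 8969 regions rose and 6524 fell in MPP. The interaction was fitted with a different block, which joined MPP and LT-HSC libraries of the same number within a genotype, and had 233. Of 175 named regions that were called, 135 kept their call without each library and 71 in every alternative. Only the covariate reversed a direction, at Pak3, from -0.50 to 0.136. Regions under 1 CPM rest on few reads, and changes in them were seen only when large.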

Other observations

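A few regions were nearly closed in 1 genotype (mean under 0.5 CPM) and above 1.5 CPM in the other. Closed in WT were regions in Hsph1 and Dnajb4, at chr3:152183191-152183994 with 0.423, 0.227 and 0.439 CPM in WT and 2.95, 2.02 and 1.15 in KO. A region in Mid1, a microtubule-associated ubiquitin ligase gene on X, had 1.07, 0.0206 and 0.304 CPM in WT and 0.271, 3.93 and 2.09 in KO, so its libraries overlapped, and its call was lost without KO replicate 2 or 3. Closed in KO were 2 regions of Adcy2, 1 of Trabd2b, which encodes a Wnt-inhibiting protease (1.37, 1.67 and 1.72 CPM in WT and 0.388, 0.442 and 0.482 in KO), 1 at the odorant receptor gene Olfr308 (1.52, 1.44 and 2.23 against 0.504, 0.467 and 0.455) and 2 outside named genes. DESeq2 did not call the regions given here with values, and some of them may have had no adjusted p in that fit.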
